A study of Rattus norvegicus with 15 samples.

Results

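The regions described here were 2247 runs of short array probes whose MeDIP signal stood low against that of other short-probe runs in rat blood. They made up 13.4% of the 16782 regions measured and held 21382 of the 171421 probes in regions. A region was a run of 3 or more probes with gaps of at most 500 bp on the rn4 assembly. It was taken into the set where its probes averaged under 47 nucleotides and where its log2(MeDIP/input) ratio, averaged over all 15 arrays, was under 0.2. Short probes on arrays of this kind usually cover GC-rich sequence, because probes are designed to a common melting temperature. GC content, CpG density and distance to a gene start were not measured here, so the regions are called low short-probe regions below. The regions were thus chosen by their probe length and by their mean ratio over all arrays, and both are given as description with no test.

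In vertebrate genomes most CpG sites carry methylated cytosine, and the exceptions are clustered in CpG islands. CpG islands overlap many gene promoters and are mostly free of methylation in healthy tissue, blood included, while some islands are methylated according to cell type. Methylated DNA immunoprecipitation (MeDIP) uses an antibody against 5-methylcytosine to pull down fragments, and its yield rises with the number of methylated CpG sites on a fragment. A CpG-rich stretch without methylation therefore gives a low ratio of pulled-down to input DNA, and so does a methylated stretch that holds few CpG sites. Blood holds many nucleated cell types with methylation patterns of their own, and the samples were not sorted.

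The study measured peripheral blood DNA of 15 male Sprague Dawley rats of 20 weeks, 3 biological replicates in each of 5 groups, with 1 array per rat. Rats of the LTF group were made diabetic with streptozotocin, which destroys insulin-producing beta cells, at 45 mg/kg, and received Luo-tong formula (LTF), a Chinese herbal formula, at 2 g/kg per day with 1.5 IU of insulin per day. A second diabetic group received another Chinese formula, for which the labels give neither a dose nor any word on insulin. The CaD group was diabetic and received calcium dobesilate (CaD), a vasoprotective drug given to patients with diabetic retinal disease, at 0.25 g/kg per day with 1.5 IU of insulin per day. The diabetic retinopathy model group (DR model) received the same streptozotocin dose and distilled water, with no insulin named. Control rats received citrate buffer in place of streptozotocin and distilled water. Drug and insulin cannot be told apart in LTF and CaD rats.

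Cy5 carried the MeDIP DNA and Cy3 the input DNA, and each value below is log2 of Cy5 over Cy3 after every array was centred on its median probe, so 0 stands for the array's median probe. Among probes of the low short-probe regions, 80.7% to 93.4% per array had MeDIP signal well above background, and 91.4% to 96.1% had such input signal. The region means of any pair of arrays correlated at 0.902 to 0.980. Precision is limited by how many arrays each group has.

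Scan and outlier spots moved with the groups. The 3 LTF arrays were scanned together and apart from all others, so LTF and scan cannot be told apart. Outlier spots took 4.97%, 6.84% and 6.22% of the probes of the low short-probe regions on LTF arrays 1, 2 and 3, against 0.154% to 3.17% on the other 12 arrays. DR model replicate 3 was scanned with CaD replicates 1 and 2, and its ratios spread over a narrow range, as those of the CaD arrays did. The interquartile range over the low short-probe regions was 0.243 on DR model replicate 3 and 0.240 and 0.245 on those CaD arrays, against 0.326 and 0.323 on DR model replicates 1 and 2. A scan effect and an exchanged label cannot be told apart for this array, and every comparison with the DR model rests on it being what its label says. Results that turn on it are given with and without it.

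The low short-probe regions lay close to the median of the array and were not a separate class of strongly depleted DNA. Their mean log2 ratio had a median of 0.0031, with quartiles at -0.15 and 0.11 and extremes at -1.41 and 0.20. The other 2780 short-probe regions had a median of 0.42, and the 11755 regions of longer probes a median of -0.22. Among all 5027 short-probe regions the ratio formed a single peak, with 620 regions between 0.1 and 0.2, 628 between 0.2 and 0.3 and 615 between 0.3 and 0.4. The limit of 0.2 thus cut through the peak and not through a gap, as the plot of the distribution shows.

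**Figure D1:**
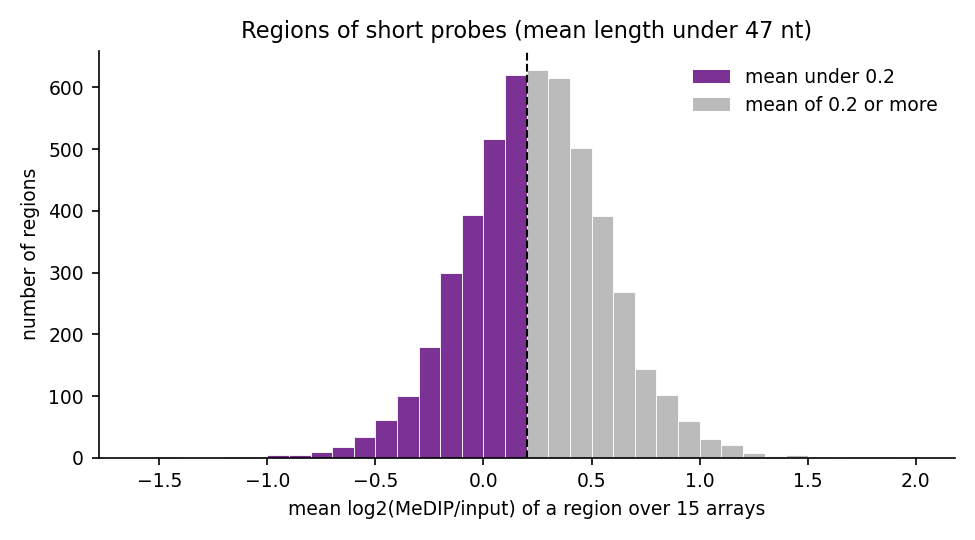
Number of regions (vertical axis) by their mean log2(MeDIP/input) ratio over 15 arrays (horizontal axis, bins of 0.1) for the 5027 regions whose probes average under 47 nucleotides. The dashed line at 0.2 parts the 2247 low regions (purple) from the other 2780 (grey), and there is no dip at the line.

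The values just inside and just outside the limit differed by less than the spread of replicates. The highest regions in the set were chr10:46809910-46811570, chr8:128037528-128039222 and chr8:127158823-127160600, and the lowest outside it were chr16:61119482-61121182, chr3:155807719-155809461 and chr7:114774656-114778072. All 6 had means of 0.20, and the median within-group SD of a low short-probe region was 0.0915. On single arrays, 1844 to 2141 of the 2247 regions lay under 0.2. A core of 1211 regions (53.9%) lay under 0.2 on all 15 arrays, 1819 (81.0%) did so on at least 12, and 111 (4.94%) on at most 8. Only 452 regions (20.1%) had ratios under 0 on every array.

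By level, 76 regions (3.38%) had means under -0.5, 1034 lay between -0.5 and 0, and 1137 between 0 and 0.2. The lowest band was the least well measured, since 19.7% of its regions had under 5 probes, against 5.65% of the whole set. The authors' deposited value table, whose scale is not stated and was taken as log2, ranked the regions in nearly the same order. Region means in that table correlated with those used here at 0.971 over the 5027 short-probe regions, which come from the same arrays. Of the 2247 low regions, 2072 (92.2%) were also among the lowest 2247 short-probe regions there, and 672 (29.9%) had a mean under 0 in that table, against 1 of the other short-probe regions.

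The region with the lowest mean, -1.41, was chr14:45055502-45056109, which held only 4 probes over 608 bp. Its log2 ratio was -1.37, -1.50 and -1.27 in LTF rats, -1.32, -1.39 and -1.32 with the other formula, -1.43, -1.43 and -1.13 with CaD, -1.39, -1.43 and -1.03 in the DR model and -1.78, -1.21 and -2.17 in controls. It was low on every array, and the control arrays both held the lowest value and overlapped the other groups. The next region, chr19:35387776-35389500, had 9 probes and a mean of -1.17. Its ratio was -1.01, -1.06 and -1.20 in LTF rats, -1.08, -1.04 and -0.94 with the other formula, -1.13, -0.98 and -1.09 with CaD, -1.58, -1.26 and -1.07 in the DR model and -1.18, -1.39 and -1.55 in controls. The 3 treated groups lay between -1.20 and -0.94 and overlapped the DR model and the controls at their lower end. The next lowest, chr9:110380692-110381140 and chr10:44911299-44911674, held 3 probes each. At chr9:110380692-110381140 a single array stood out, with -2.65 on LTF replicate 2 and values from -1.23 to -0.48 on all others. The fifth lowest, chr8:115036616-115038241, held 9 probes and averaged -0.97, with group means of -0.93 in LTF rats, -0.99 with the other formula, -0.80 with CaD, -0.97 in the DR model and -1.13 in controls.

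Region size did not set the low regions apart from the other short-probe regions. They had a median of 10 probes and a span of 1653 bp, against 10 probes and 1649 bp in the other short-probe regions. The longest was chr5:167142948-167158465, with 84 probes over 15518 bp. Its ratio was 0.09, 0.10 and 0.11 in LTF rats, 0.04, 0.03 and 0.06 with the other formula, 0.04, 0.03 and 0.03 with CaD, 0.13, 0.08 and 0.05 in the DR model and 0.11, 0.05 and 0.07 in controls. LTF arrays lay above those of the other formula and of CaD, CaD arrays lay below the controls, and the DR model overlapped both LTF and control. The tract at chr13:45066409-45078809, with 65 probes and a mean of 0.16, had group means of 0.13 in LTF rats, 0.13 with the other formula, 0.14 with CaD, 0.20 in the DR model and 0.19 in controls.

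Inside a region the probes differed far more than the regions did. The median SD among the probes of a low short-probe region was 0.748, against 0.585 in the other short-probe regions and 0.797 in regions of longer probes. Of the 21382 probes, 11.4% had mean ratios under -1, and 26.2% had ratios of 0.5 or more. In the other short-probe regions these shares were 2.06% and 48.6%. Depleted and enriched probes stood side by side. Both a probe under -1 and a probe of 0.5 or more were found in 1422 low short-probe regions (63.3%). Among the other short-probe regions this held in 485 (17.4%), which were all of those with any probe under -1. The sets were split by the mean of these same probes, which largely fixes the contrast in low probes, so these shares are descriptions. The median distance between a region's lowest and highest probe was 2.29 in the low regions and 1.80 in the others.

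Probe length ran along with the ratio inside the regions. Probes of 45 nucleotides, 73.0% of the total, averaged 0.15 ± 0.03 (SD over 15 arrays) in the low short-probe regions, and probes of 51 to 60 nucleotides averaged -0.81 ± 0.09. In the other short-probe regions the same classes averaged 0.53 and 0.0041. The low regions held more of the longer probes, with a median of 27.3% of probes over 45 nucleotides in a region, against 20%. Counting only probes of 45 nucleotides, 2180 low regions kept 3 or more of them, their median ratio was 0.17, and 1246 of them (57.2%) stayed under 0.2, against 81 of 2723 (2.97%) of the other short-probe regions. The same probes make up most of the mean by which the sets were split, so this difference is a description, and the part of probe length in the low ratio was not tested.

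Signal was lowest at the centre and at the edges of the regions. The plot of the ratio along the regions covers the 1777 low regions of 1200 to 2200 bp with at least 8 probes. In those, the ratio averaged -0.08 within 100 bp of the centre, 0.05 at 300 to 400 bp and -0.11 at 700 to 800 bp. The other short-probe regions also fell at the edge, from 0.50 at 300 to 400 bp to 0.37 at 700 to 800 bp. Probes at 700 to 800 bp were the longest in both sets, averaging 46.6 nucleotides in the low regions and 46.3 in the others. The part of probe length in the edge fall was not tested. In the low regions the centre lay below the stretch from 300 to 500 bp by 0.13 ± 0.02 (SD, n = 15 arrays), and it was lower on 15 of 15 arrays. The other short-probe regions had a centre lower by 0.07 ± 0.02 (SD, n = 15 arrays), also on 15 of 15. The depth of the dip in the low regions averaged -0.12 ± 0.01 in LTF rats, -0.12 ± 0.0047 with the other formula, -0.10 ± 0.0075 with CaD, -0.14 ± 0.03 in the DR model and -0.14 ± 0.02 in controls (SD, n = 3 each). Arrays of CaD and of the other formula had shallower dips than all controls, and LTF and DR model arrays overlapped the controls. The part of the narrower range of ratios on CaD and other-formula arrays in this was not tested.

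**Figure D2:**
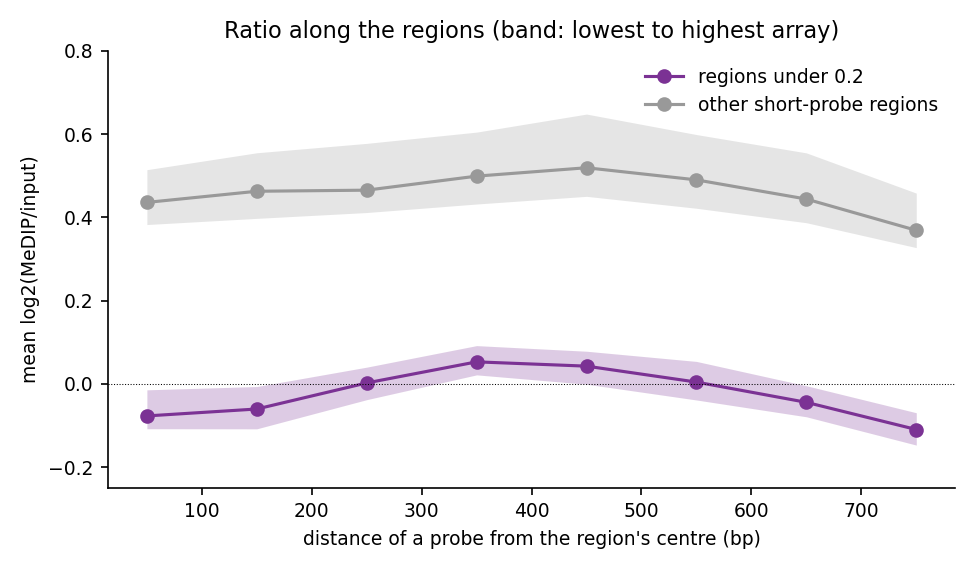
Mean log2(MeDIP/input) ratio of probes (vertical axis) by their distance from the centre of the region in bp (horizontal axis, bins of 100 bp) in the low short-probe regions (purple) and the other short-probe regions (grey). Lines are means over 15 arrays and bands run from the lowest to the highest array; the low regions had -0.08 at the centre, 0.05 at 300 to 400 bp and -0.11 at 700 to 800 bp.

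The low short-probe regions lay on every chromosome measured, 368 on chromosome 1, 244 on chromosome 10 and 189 on chromosome 7. Their share of the short-probe regions of a placed chromosome ran from 36.0% on chromosome 12 to 52.6% on chromosome 11. As a share of all regions they were scarcest on the X chromosome, with 44 of 606 (7.26%), and most common on chromosome 19, with 18.8%. Short-probe regions of either kind were scarce on the X chromosome, and 49.4% of those there were low. Low regions did not sit next to one another more than the others did: of 199 regions that followed a low region within 5000 bp, 52 (26.1%) were low, against 64 of 252 (25.4%) after the other short-probe regions.

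The overall level of the low short-probe regions was nearly the same in the 5 groups. The median ratio of an array over these regions averaged -0.025 ± 0.014 in LTF rats, -0.0030 ± 0.0066 with the other formula, 0.0099 ± 0.015 with CaD, 0.0050 ± 0.018 in the DR model and -0.0083 ± 0.0051 in controls (SD, n = 3 each). By array these medians were -0.025, -0.011 and -0.038 in LTF rats, 0.0011, -0.011 and 0.00046 with the other formula, 0.025, 0.0094 and -0.0049 with CaD, -0.015, 0.0094 and 0.020 in the DR model and -0.0072, -0.014 and -0.0039 in controls. LTF arrays were the lowest on average, and every pair of groups overlapped except LTF and CaD. The other short-probe regions had medians of 0.408 ± 0.0283 in LTF rats, 0.398 ± 0.0276 with the other formula, 0.406 ± 0.0165 with CaD, 0.490 ± 0.0617 in the DR model and 0.475 ± 0.0195 in controls (SD, n = 3 each). There, controls lay above every treated array. The gap between both kinds of short-probe region was 0.432 ± 0.0171 in LTF rats, 0.401 ± 0.0238 with the other formula, 0.396 ± 0.00598 with CaD, 0.485 ± 0.0746 in the DR model and 0.483 ± 0.0155 in controls. Within the DR model the gap was 0.531 and 0.524 on replicates 1 and 2 and 0.399 on replicate 3, the last of which lay among the CaD arrays of its scan, at 0.400 and 0.389.

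**Figure D3:**
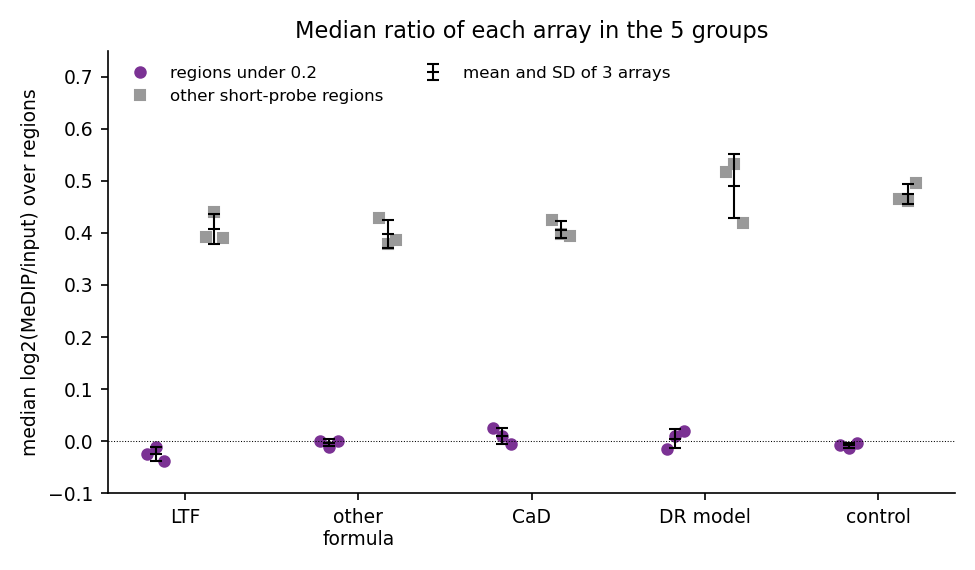
Median log2(MeDIP/input) ratio of each array (vertical axis) over the low short-probe regions (purple circles) and the other short-probe regions (grey squares) in the 5 groups (horizontal axis), with bars for the mean and SD of 3 arrays. The low regions stayed between -0.038 and 0.025 on all arrays, while the other regions ran from 0.378 to 0.533 and DR model replicate 3 stood with the treated groups.

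Group medians lay furthest apart in the lowest regions. In the 76 regions under -0.5 the median of the group means was -0.68 in LTF rats, -0.58 with the other formula, -0.55 with CaD, -0.65 in the DR model and -0.71 in controls. In the 1137 regions between 0 and 0.2 it was 0.09 in LTF rats, 0.10 with the other formula, 0.11 with CaD, 0.13 in the DR model and 0.11 in controls. The interquartile range over the low short-probe regions was 0.288 ± 0.0135 in LTF rats, 0.253 ± 0.0119 with the other formula, 0.247 ± 0.00902 with CaD, 0.297 ± 0.0473 in the DR model and 0.325 ± 0.00945 in controls (SD, n = 3 each). Across the 2247 regions the difference between diabetic rats and controls correlated with the mean ratio at -0.23, and over all 16782 regions at -0.58. Both quantities come from the same arrays, and the part of the narrower range in the differences by level was not tested.

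The first comparison set the mean of the 4 diabetic groups, treated or not, against control. In limma with Benjamini-Hochberg adjustment over all 16782 regions, 109 low short-probe regions passed an adjusted p of 0.05, 76 higher and 33 lower in diabetic rats. They were 4.85% of the set, beside 8.71% of all regions that passed, 6.35% as higher and 2.36% as lower, and their median absolute difference was 0.25, in a range of -0.38 to 0.42. Among the other short-probe regions 156 passed, 12 higher and 144 lower. The balance of directions moved with the processing, and the cause was not tested. With normexp background correction 137 of the low regions passed as higher and 8 as lower (6.45%, beside 12.4% of all regions). The counts were 23 and 28 with quantile normalization (2.27%, beside 3.34%) and 90 and 68 by the authors' values (7.03%, beside 9.92%). With loess they were 56 and 223 (12.4%, beside 20.1%). Of the 109, 48 passed with normexp correction, 50 with quantile normalization, 62 by the authors' values and 75 with loess. The median difference over the 2247 regions was 0.011 beside 0.023 over all regions.

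The group means of all 4 diabetic groups lay on the same side of control in 74 of the 76 higher (97.4%) and 31 of the 33 lower regions (93.9%). Among all regions that passed these shares were 99.6% of those higher and 97% of those lower, and passing the test on the mean of the 4 groups largely fixes them. Medians of group means over the 76 were -0.12 in LTF rats, -0.06 with the other formula, -0.05 with CaD, -0.14 in the DR model and -0.35 in controls. Over the 33 they were -0.08 in LTF rats, -0.07 with the other formula, -0.08 with CaD, 0.06 in the DR model and 0.15 in controls. By these medians the DR model was the diabetic group nearest to control in both sets, though in the 76 it stood close to LTF. The same medians over all regions that passed were not taken. Diabetic and control arrays did not overlap in 70 of the 2247 regions (3.12%), 48 higher and 22 lower, beside 3.51% of all regions, 2.54% higher and 0.965% lower, and these included 33 of the 76 and 14 of the 33 that passed. In the other regions that passed, single diabetic and control arrays overlapped. By level, 8 of the 76 regions under -0.5 passed (10.5%), all higher in diabetic rats. Between -0.5 and 0, 67 of the 1034 regions passed (6.48%), 50 higher and 17 lower. Between 0 and 0.2, 34 of the 1137 did (2.99%), 18 higher and 16 lower. Shares of all regions at the same levels were not taken. Over all 16782 regions the difference also fell as the mean ratio rose, with a correlation of -0.58.

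**Figure D4:**
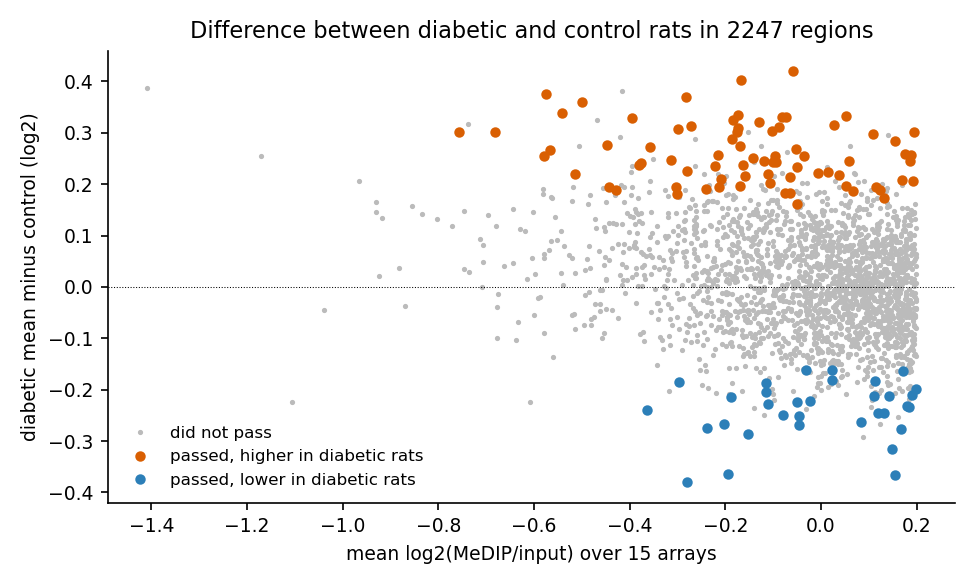
Mean of the 4 diabetic groups minus control in log2 ratio (vertical axis) against the mean log2 ratio over 15 arrays (horizontal axis) for the 2247 low short-probe regions. Each point is a region; orange marks the 76 that passed as higher in diabetic rats and blue the 33 that passed as lower, and every passing region under -0.5 is orange.

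The region with the smallest p was chr14:79118010-79119671, a run of 10 probes. Its log2 ratio was 0.03, 0.06 and -0.07 in LTF rats, -0.07, -0.02 and 0.03 with the other formula, 0.03, 0.01 and 0.03 with CaD and -0.07, -0.02 and -0.04 in the DR model, against -0.40, -0.30 and -0.31 in controls. All 12 diabetic arrays lay above all 3 control arrays, by 0.33 ± 0.05 (SE, limma, adjusted p = 0.00296). The difference sat in part of the region. The first 4 probes, from 809 to 279 bp before the centre, had ratios of 0.41 to 1.18 in every group, whereas the probe 493 bp past the centre had -1.51 in LTF rats, -1.38 with the other formula, -1.52 with CaD, -1.85 in the DR model and -2.29 in controls. In all, 8 of 10 probes were higher in diabetic rats, and with the median of the probes in place of their mean the difference was 0.13 (limma, adjusted p = 0.441).

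At chr1:206868958-206870612, with 10 probes, the ratio was 0.14, 0.24 and 0.12 in LTF rats, 0.09, 0.10 and 0.12 with the other formula, 0.17, 0.07 and 0.06 with CaD and -0.08, 0.0045 and 0.04 in the DR model, against -0.26, -0.25 and -0.17 in controls. The DR model lay between the treated groups and control with no overlap on either side, and the 4 diabetic groups together were higher by 0.31 ± 0.05 (SE, limma, adjusted p = 0.00315). At chr10:87935847-87937429, with 9 probes, the ratio was -0.42, -0.35 and -0.39 in LTF rats, -0.52, -0.39 and -0.37 with the other formula, -0.39, -0.35 and -0.35 with CaD and -0.40, -0.45 and -0.32 in the DR model, against -0.68, -0.66 and -0.67 in controls. Here the 4 diabetic groups overlapped one another and none reached the controls, a difference of 0.28 ± 0.05 (SE, limma, adjusted p = 0.00478). The remaining named regions that rose were chr1:29896251-29897976 by 0.38 and chr9:94920696-94922370 by 0.30.

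The leading region that fell was chr1:79678319-79679565, with 7 probes. Its ratio was -0.52, -0.53 and -0.39 in LTF rats, -0.44, -0.41 and -0.31 with the other formula, -0.47, -0.29 and -0.29 with CaD and -0.17, -0.22 and -0.23 in the DR model, against 0.14, -0.014 and -0.052 in controls. The groups ran in order, with the treated ones lowest, the DR model next and control highest, and the DR model overlapped no other group. The diabetic groups lay lower by -0.38 ± 0.06 (SE, limma, adjusted p = 0.00315). The probe at the edge, 598 bp before the centre, had -1.38 in LTF rats, -1.34 with the other formula, -1.14 with CaD and -1.23 in the DR model, against -0.07 in controls. Another probe, 191 bp before the centre, had no value left on any LTF array once outlier spots were removed. It had 0.24 with the other formula, 0.47 with CaD, 0.60 in the DR model and 0.26 in controls, above the region mean of each group. The part of its absence in the low LTF and diabetic means was not tested. At chr5:127807801-127809511 the ratio was 0.0073, -0.0099 and 0.12 in LTF rats, 0.03, 0.07 and 0.03 with the other formula, 0.01, 0.17 and 0.02 with CaD and 0.19, 0.24 and 0.10 in the DR model, against 0.59, 0.33 and 0.42 in controls. All diabetic arrays stood under all controls, by -0.37 ± 0.06 (SE, limma, adjusted p = 0.0042). At chr17:85874662-85876336, which fell by 0.26, 11 of 11 probes were lower in diabetic rats, and chr16:19169831-19171523 fell by 0.25 and chr14:37276003-37276740 by 0.27.

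With scan as a random block, 16 low short-probe regions passed, 8 higher and 8 lower (0.712%, beside 1.69% of all regions), and they included 9 of the 10 regions named here, all but chr9:94920696-94922370 (limma, adjusted p = 0.053). On scan day 3, controls 2 and 3 were scanned beside DR model replicates 1 and 3 and CaD replicates 1 and 2. Within that day all 10 passed, with differences from 0.26 to 0.37 for those higher and from -0.26 to -0.25 for those lower. The 10 were picked where no diabetic array overlapped a control array, so any part of the same arrays must keep their directions. The share of all regions that passed within scan day 3 is not given here. Within scan day 1, where control replicate 1 was the only control, 1 of the 10 passed, with differences in the same directions. With normexp background correction the differences shrank to between 0.09 and 0.15 for those higher and between -0.14 and -0.04 for those lower, and 7 of the 10 passed. The calls were lost at chr1:79678319-79679565, with -0.05 (limma, adjusted p = 0.206), chr17:85874662-85876336, with -0.04 (adjusted p = 0.308), and chr16:19169831-19171523, with -0.07 (adjusted p = 0.0721). With the median of the probes 2 of the 10 passed, chr1:206868958-206870612 and chr1:79678319-79679565. The count of regions that passed on all arrays moved with single arrays. It was 27 without control replicate 3, 67 without control replicate 2 and 62 without CaD replicate 2. Without other formula replicate 3 it was 65, and without DR model replicate 2 it was 208. Shares of all regions without these arrays are not given here, so the counts do not set the low short-probe regions apart from the whole array.

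The DR model against control, the direct test of untreated diabetes, passed no low short-probe region and no region of the whole array (0% of 16782). At an unadjusted p of 0.05 in limma, 236 of the 2247 (10.5%) were under the limit, beside 12.7% of all regions. Groups did not overlap in 267 (11.9%, beside 11.5% of all), 183 higher and 84 lower in the DR model, beside 8.47% and 3.04% of all regions. The leading regions were again chr14:79118010-79119671, with a difference of 0.29 (limma, adjusted p = 0.104), and chr10:87935847-87937429, with 0.28 (adjusted p = 0.111). The difference of -0.45 at chr2:190652652-190653024 rested on 3 probes (adjusted p = 0.112). At that region the ratio was -0.48, -0.30 and -0.34 in the DR model, against 0.10, -0.03 and 0.17 in controls, and the groups did not overlap. Within scan 5, which held controls 2 and 3 and DR model replicate 1, 7 low short-probe regions passed, all lower in the DR model (0.312%, beside 0.232% of all regions), with 1 array in the DR model arm, and the differences at the first 2 of these named regions were 0.24 and 0.26. The median difference over the set was 0.021, beside 0.039 over all regions.

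LTF against the DR model passed 16 low short-probe regions, 2 higher and 14 lower. They were 0.712% of the set, beside 0.9% of all regions, 0.238% as higher and 0.661% as lower, and beside 1.37% of the other short-probe regions. Groups did not overlap in 525 (23.4%, beside 20.3% of all), with 138 higher and 387 lower in LTF rats, beside 6.71% and 13.6% of all regions, and the median difference was -0.03. With normexp correction 10 regions passed as higher and 18 as lower (1.25%, beside 2.62% of all regions). By the authors' values 7 passed as higher and 10 as lower (0.757%, beside 0.924%). Many of these were other regions: of the 16, 7 passed with normexp correction, 3 by the authors' values and 1 among the 17 regions that passed with the median of the probes. The 14 lower regions had medians of group means of -0.29 in LTF rats, -0.09 with the other formula, -0.08 with CaD, 0.14 in the DR model and -0.08 in controls. LTF was the lowest of the 5 groups in 11 of the 14, the DR model the highest in 12, and both held in 9. These regions were picked as lower in LTF rats than in the DR model, which largely fixes those positions. The same counts over all regions that passed were not taken.

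With scan as a random block none passed (180 of the 2247 at an unadjusted p of 0.05 in limma). Without DR model replicate 1, or without any 1 of the 3 LTF arrays, none passed, and without DR model replicate 2, CaD replicate 2 or other formula replicate 2 there were 2. Without CaD replicate 1 or other formula replicate 3 there were 5, without CaD replicate 3 there were 8 and without other formula replicate 1 there were 9. Without control replicate 1 there were 26, and without DR model replicate 3 there were 90 (4.01%, beside 7.79% of all regions). Only the last of these counts has a share of all regions beside it, so the others do not set the low short-probe regions apart from the whole array. On all arrays the adjusted p-values of the 16 lay between 0.0245 and 0.0487.

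The smallest p was at chr9:43206712-43208409, with 11 probes. Its ratio was -0.11, -0.06 and -0.20 in LTF rats, -0.01, 0.09 and 0.07 with the other formula, 0.07, 0.16 and 0.15 with CaD, 0.24, 0.29 and 0.27 in the DR model and -0.0088, 0.17 and 0.10 in controls. LTF arrays were the lowest of all and DR model arrays the highest, with no overlap between them, and the other groups lay in between. The difference was -0.39 ± 0.06 (SE, limma, adjusted p = 0.0245), and 10 of 11 probes were lower in LTF rats. The probe 348 bp before the centre had -1.29 in LTF rats, -0.82 with the other formula, -0.67 with CaD, -0.25 in the DR model and -0.02 in controls. The edge probe had -3.43 in LTF rats, -2.69 with the other formula, -2.52 with CaD, -2.26 in the DR model and -3.01 in controls. With the median of the probes the difference was -0.06 (limma, adjusted p = 0.817).

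Several of the named regions set the treated groups on one side and the DR model with control on the other, with no overlap of arrays. Regions were named for the smallest p where a treated group and the DR model did not overlap, which largely fixes that part of the pattern. Regions with this pattern were not counted over the set or over all regions. Besides those shown here, named regions with it included chr9:74676248-74677893, chr8:48154319-48156044 and chr1:77440102-77441411, with treated rats higher. At chr10:46844564-46845998 treated rats were lower, and the LTF difference of -0.28 passed (limma, adjusted p = 0.0398). At chr1:76513343-76514065, with 5 probes, the ratio was -0.22, -0.22 and -0.32 in LTF rats, -0.21, -0.12 and -0.16 with the other formula, -0.38, -0.16 and -0.26 with CaD, 0.44, 0.37 and 0.05 in the DR model and 0.11, 0.19 and 0.21 in controls. All treated arrays were under 0 and all others above it, and DR model replicate 3 was the nearest of these to the treated arrays. LTF fell by 0.54 (limma, adjusted p = 0.0245), while the differences of -0.55 for CaD (adjusted p = 0.105) and -0.45 with the other formula (adjusted p = 0.103) did not pass. Without DR model replicate 3 the differences were -0.66 for LTF, -0.67 with CaD and -0.57 with the other formula, and all 3 passed (limma, adjusted p = 0.00181, 0.00223 and 0.00299). With normexp background correction, however, they were -0.09, -0.10 and -0.06, and none passed.

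The reverse was seen at chr4:120044388-120046051, with 10 probes. Its ratio was -0.0071, 0.14 and -0.06 in LTF rats, -0.02, -0.06 and -0.04 with the other formula, -0.05, 0.0068 and -0.10 with CaD, -0.58, -0.45 and -0.17 in the DR model and -0.31, -0.38 and -0.37 in controls. Every treated array lay above every DR model and control array, and DR model replicate 3 was again the one nearest to the treated arrays. LTF rose by 0.42 (limma, adjusted p = 0.039), and without DR model replicate 3 the difference was 0.54. The differences of 0.35 with CaD (adjusted p = 0.143) and 0.36 with the other formula (adjusted p = 0.103) did not pass, and without DR model replicate 3 both were 0.47 and passed (limma, adjusted p = 0.00491 with CaD and 0.00565 with the other formula). All probes but 1 were higher in LTF rats and 10 of 10 with the other formula. The probe 480 bp past the centre had -0.84 in LTF rats, -0.86 with the other formula, -1.07 with CaD, -1.56 in the DR model and -2.12 in controls.

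**Figure D5:**
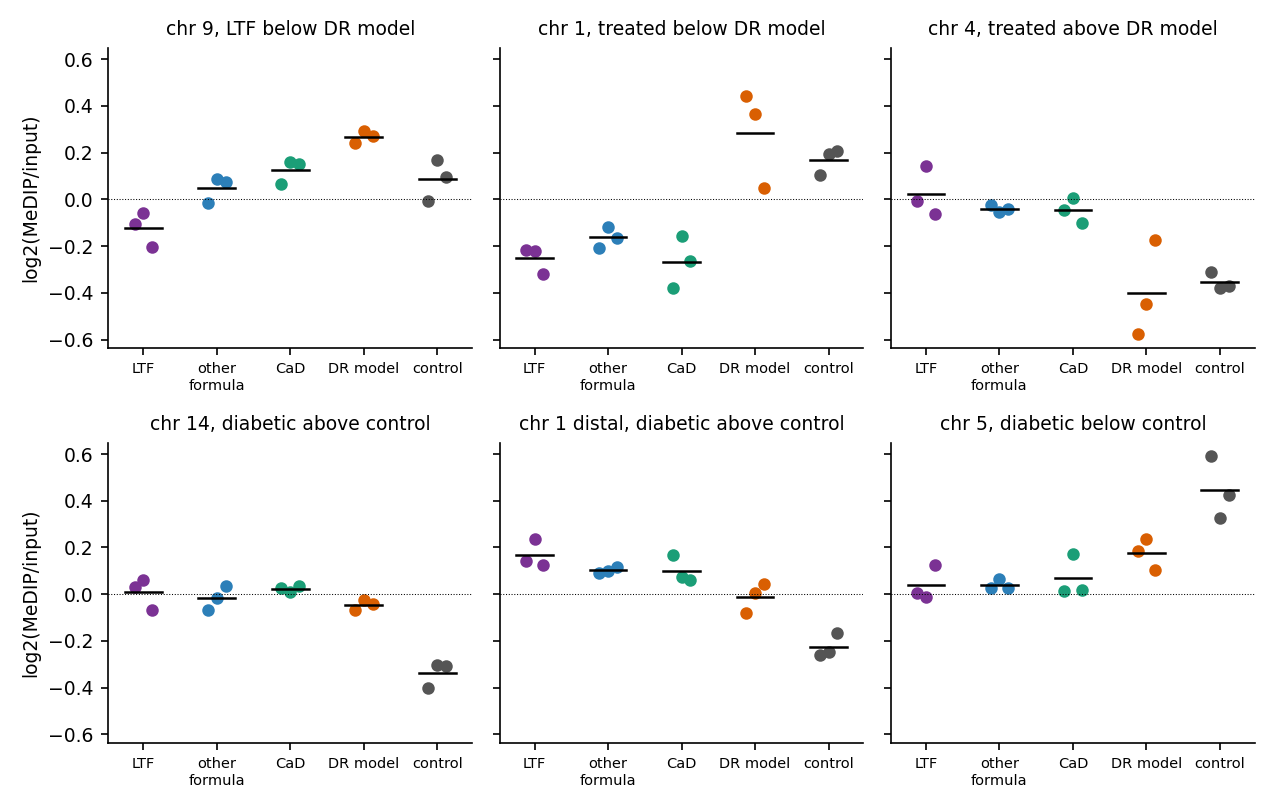
Log2(MeDIP/input) ratio (vertical axis) of each array (points) and group mean (bars) at 6 low short-probe regions, with groups along the horizontal axis. The top row shows the leading LTF region on chromosome 9 and regions on chromosomes 1 and 4 where the treated groups stood apart from the DR model and control. The bottom row shows regions on chromosomes 14, 1 and 5 where control stood apart from all diabetic groups.

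The other LTF regions that passed among those named fell by 0.34 at chr2:205805762-205807476, by 0.43 at chr13:87111682-87113374 and by 0.46 at chr7:13266773-13268476, and rose by 0.29 at chr1:68034242-68034952. At chr13:87111682-87113374 the ratio was -0.93, -0.98 and -1.17 in LTF rats, -0.70, -0.58 and -0.65 with the other formula, -0.48, -0.47 and -0.53 with CaD, -0.54, -0.76 and -0.48 in the DR model and -0.71, -0.73 and -0.88 in controls. LTF arrays were under all others there. With outlier spots kept, the difference was -0.15 (limma, adjusted p = 0.296), and at chr7:13266773-13268476 it was -0.25 (adjusted p = 0.1).

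CaD and the other formula each passed no low short-probe region against the DR model, and no region of the whole array did (0% of 16782 in both). At an unadjusted p of 0.05 in limma, 225 of the 2247 (10.0%, beside 15% of all) were under the limit with CaD and 254 (11.3%, beside 15.1%) with the other formula. CaD and DR model arrays did not overlap in 370 regions (16.5%, beside 16.4% of all), 179 higher and 191 lower, beside 6.65% and 9.79% of all regions. Arrays of the other formula and of the DR model did not overlap in 459 (20.4%, beside 18.6%), 176 higher and 283 lower, beside 5.57% and 13% of all regions. Without DR model replicate 3, 75 regions passed with CaD (3.34%, beside 8.51% of all regions) and 69 with the other formula (3.07%, beside 6.76%). Within scan 6, where DR model replicate 3 stood beside CaD replicates 1 and 2, none passed for CaD (37 at an unadjusted p of 0.05 in limma), and within scan day 1, where the other formula was set against DR model replicate 2 alone, 70 passed (3.12%, beside 5.85% of all regions). The median difference in the low short-probe regions was 0.0078 with CaD and -0.0085 with the other formula, and it was -0.09 for both in the other short-probe regions. These comparisons and that of LTF share the 3 DR model arrays.

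Among the leading CaD regions, chr3:144119798-144120957 had ratios of 0.01, -0.08 and -0.11 with CaD, against 0.20, 0.28 and 0.29 in the DR model. The groups did not overlap, and the difference was -0.32 (limma, adjusted p = 0.105). LTF rats, at -0.04, -0.05 and -0.04, and those of the other formula, at -0.09, -0.06 and 0.01, were on the same side, and controls lay at -0.02, -0.01 and 0.08, so the DR model stood alone. LTF passed there, at -0.30 (limma, adjusted p = 0.037). At chr8:48154319-48156044 the ratio was -0.06, -0.02 and 0.02 with CaD, against -0.35, -0.27 and -0.21 in the DR model. The difference was 0.26 (limma, adjusted p = 0.134), and controls overlapped the DR model at -0.32, -0.24 and -0.28. LTF rats, at -0.17, -0.08 and -0.19, and those of the other formula, at -0.07, -0.10 and -0.05, also lay above both.

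For the other formula, the leading higher region was chr9:74676248-74677893, with 11 probes. Its ratio was -0.12, -0.19 and -0.13 with the other formula, against -0.50, -0.48 and -0.41 in the DR model, a difference of 0.32 that did not pass (limma, adjusted p = 0.103). Controls, at -0.40, -0.47 and -0.47, lay with the DR model. LTF rats, at -0.29, -0.17 and -0.23, and CaD rats, at -0.25, -0.26 and -0.14, lay above both. The leading lower region, chr10:56826137-56826525, had 3 probes and ratios of 0.03, 0.01 and 0.08 with the other formula, against 0.53, 0.39 and 0.32 in the DR model, a difference of -0.37 (adjusted p = 0.103). Controls there had 0.28, 0.26 and 0.15, between both groups.

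Replicates limited what single regions could show. Among regions of at least 5 probes the largest within-group SD was 0.338, at chr5:133264050-133265209, where 1 array decided it: the DR model had -1.26, 0.07 and -0.05. The LTF rats there had -0.24, -0.14 and -0.21. Also among regions of at least 5 probes, the largest range of group means, 0.63, was at chr3:40856495-40857255, with means of -1.13 in LTF rats, -0.69 with the other formula, -0.49 with CaD, -0.80 in the DR model and -0.91 in controls. The median range of the 5 group means over the set was 0.169, beside a median within-group SD of 0.0915. At the other end, chr3:99906068-99907799 had a mean of 0.03 or 0.04 in every group, though its arrays ran from -0.12 to 0.10.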

How the data were processed

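MeDIP and input DNA of 15 rat blood samples were hybridised to 2-colour Agilent arrays. Per the file headers, Feature Extraction 11.0.1.1 made the scanner files as deposited, which hold, per spot and channel, an intensity that was background-subtracted and dye-normalised, with probe positions on the rn4 assembly. A log10 ratio of both channels, as the authors deposited it, was not used in the tests. Per the labels, Cy5 carried MeDIP DNA and Cy3 input. The value table deposited by the authors was read as log2 of MeDIP over input; this is assumed, because no source used here states its base, centre or direction. Limma is named in the submitters' processing notes with no role.

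After removal of 6856 control spots, the log2 ratio of processed signals, Cy5 to Cy3, was computed for 172669 probes and centred on each array's median (-0.11 to -0.01 before centring). Outlier spots, 235 to 10700 per array, were left out, so the probes averaged in a region can differ between arrays, and at most 19 saturated spots per array were kept. Of 17668 runs, 884 were too short and 2 had a missing value, leaving 16782 regions. Region means were fitted with limma 3.58.1 in R 4.3.3 (lmFit and eBayes) with 5 group means and a shared spread, with Benjamini-Hochberg adjustment over all regions and a threshold of 0.05. SEs are those of this fit. The steps were tested on simulated data.

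Scans were told apart by identical time stamps: DR model replicate 2 was in scan 1, control replicate 1 in scan 2, the other formula with CaD replicate 3 in scan 3, LTF in scan 4, DR model replicate 1 with control replicates 2 and 3 in scan 5, and CaD replicates 1 and 2 with DR model replicate 3 in scan 6. Scans 1 to 3 were on day 1, scan 4 on day 2 and scans 5 and 6 on day 3. Values within a scan pool the spread, and a lone array there is taken to vary as arrays elsewhere do.

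Alternatives were normexp background correction, loess, quantile normalization, the authors' table, filters on dim probes and outlier spots, the median of the probes, other limits for regions, scan and replicate blocks, and leaving out arrays. The normexp setting used median signals, since the files used here have no mean signal. Leaving out both arrays scanned alone was added after seeing the data. The regions and the rules that name them were chosen with earlier results of these data known. Named were the 5 lowest regions, those next to the limit, in each comparison the 5 smallest p-values of either direction among regions whose groups did not overlap, and the longest, most and least variable ones. Genes and sequences were not assigned, as no rn4 genome or annotation was used here, and blood cell markers were not analysed here for the same reason.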

Additional observations from a re-analysis of the deposited data

How the results depend on the processing

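Counts of low short-probe regions that passed limma were sensitive to the processing. Where no share of all regions stands beside a count, the count does not set these regions apart from the whole array. For LTF against the DR model (16), 28 passed with normexp correction (1.25%, beside 2.62% of all regions) and 26 with loess (1.16%, beside 1.23%). Further counts were 27 with only probes well above background in the input channel and 31 with outlier spots kept (11 of the 16 among them). They were 5 and 34 with probe length limits of 46 and 48, 25 with a narrower limit on gaps and 0 with scan as a random block. With the replicate block 2 passed, and 3 did without both arrays scanned alone. For diabetic rats against control (109), 279 passed with loess (12.4%, beside 20.1% of all regions). With quantile normalization 51 passed (2.27%, beside 3.34%), 50 of the 109 among them, and with the median of the probes 46 (12 among them). Further counts were 36 and 202 with length limits of 46 and 48, 16 with the random scan block and 66 with the replicate block. For the DR model against control (0), 6 passed with loess, 2 with scan as a fixed block, 7 within scan 5, 1 within scan day 3 and 3 without both arrays scanned alone. For CaD against the DR model (0), 1 passed with quantile normalization (0.0445%, beside 0.0179% of all regions) and 1 in the authors' table (0.0445%, beside 0.0834%). For the other formula (0), 6 passed with normexp, 18 in the authors' table and 70 within scan day 1. Leaving out 1 array gave 0 to 90 for LTF, 27 to 208 for diabetic rats against control, 0 to 2 for the DR model against control, 0 to 75 for CaD and 0 to 69 for the other formula. The cause was not tested, except that other length limits change which regions are counted.

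The median difference over the set turned its sign under some settings in each comparison but that of LTF, where it was negative throughout, and the pooled SD of array medians was 0.0127. For the DR model against control it was 0.0211, and -0.0159 with loess, -0.00581 with quantile normalization, -0.000513 in the authors' table, 0.00686 with the median of the probes and 0.00389 both with scan as a fixed block and within scan 5. For CaD it was 0.00777, and 0.0294 with normexp, -0.0236 with loess, -0.00787 with the median of the probes and -0.0263 within scan day 1. For the other formula it was -0.00849, and 0.0222 with normexp, 0.00683 with quantile normalization, 0.0174 in the authors' table and 0.00473 with the fixed scan block. For LTF it was -0.0342, and -0.00615 with normexp, -0.0495 with loess, -0.00483 in the authors' table and -0.0484 with a length limit of 46. For diabetic rats against control it was 0.0111, and 0.0306 with normexp, -0.0399 with loess, -0.0119 with quantile normalization, 0.0242 with the filter on dim probes, -0.0123 with the median of the probes, -0.00489 with a length limit of 46 and 0.0318 within scan day 3. Leaving out 1 array gave 0.0109 to 0.035, -0.00784 to 0.0163, -0.0229 to -0.000278, -0.0469 to -0.0265 and 0.00868 to 0.0137 in the same order.

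Named regions changed sign in 3 cases: -0.0123 at chr7:137474693-137475405 (other formula, authors' table), -0.058 at chr17:28309281-28310934 (LTF, median of the probes) and 0.0242 at chr20:28718344-28719425 (other formula, fixed scan block). Replicate numbers were not treated as pairs in the main tests. The deviations of 30 same-numbered pairs correlated at -0.424 to 0.331, and only 5 pairs exceeded 0.1. Pairs with different numbers were not set beside them, so these values do not decide whether samples were paired. Scan had a consensus correlation of 0.390 between region means of the same scan.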
